A study of Mus musculus with 4 samples.

Results

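The regions described here are the narrowest accessible stretches of the naive CD4 T cell genome: those under 150 bp wide on chromosomes 1 to 19 that lay within 200 kb of a protein-coding gene. They were 3662 of the 64525 regions in the joint ATAC-seq list of the series, or 5.68%, and 6.52% of the 56149 autosomal regions that met the same limit on distance. ATAC-seq uses a transposase that cuts and tags DNA left free by nucleosomes. Naive CD4 T cells, the resting precursors of helper T cells, were taken from the tissues labelled spleen and pLN. There were 2 libraries from wild-type mice (WT) and 2 from mice labelled DDX55 KO, a knockout of the RNA helicase gene Ddx55 that the list cannot check. The labels give no age, strain or deletion design for either genotype, and do not say whether the 2 libraries of a genotype came from separate animals. The list joins all 4 libraries and gives a position for each region with no read count, library or genotype. Depth is therefore unknown, the knockout was not compared with the wild type, and how many libraries contributed to a narrow region was not analysed here.

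An accessible region in such a list is a stretch where transposase cuts were dense enough to be called. Wide regions are typical of active promoters, where several nucleosomes are displaced around the start of transcription and many factors bind. Narrow ones are about as long as the DNA on a single nucleosome or shorter, and can mark a single binding site, a weakly open enhancer or a site open in few cells. These are background statements about the assay, and the list has no value with which to tell them apart. Marker genes of the labelled cell type had regions in the list as a whole: 9 of 9 naive CD4 T cell genes (Cd3d, Cd3e, Cd3g, Cd4, Lck, Tcf7, Lef1, Ccr7 and Il7r) had a region within 1 kb of a gene end. This held for 0 of 4 B cell genes, 0 of 2 natural killer cell genes, 1 of 2 CD8 genes (Cd8b1) and 2 of 4 myeloid genes (Csf1r and Itgam).

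Few narrow regions lay in the promoter itself. A promoter window here is the 300 bases from 250 before to 50 after an annotated start, and 20084 such windows of autosomal protein-coding genes were available from RefSeq (GRCm38.p6, the assembly named mm10). Narrow regions overlapped 34 of them, at 31 genes, and 16 windows of 15 genes held a whole narrow region. Of the narrow regions 30 overlapped a promoter window (0.819%, 0.553 to 1.17%), against 1.13% of the class next in width, 41.6% of wide regions (the upper quartile of width) and 14.0% of all regions near genes. The 6 narrowest of the regions held whole in a window are printed below because they show what a narrow region at a start looks like base by base. Gimap4, a GTPase gene of lymphocyte survival, was added after its values were seen, as a T cell example. Each line runs 5′ to 3′ on the gene's own strand, from 250 bases before the start to 29 bases after its first base, which is numbered 0. The bases of the narrow region are in capitals.
Sytl3: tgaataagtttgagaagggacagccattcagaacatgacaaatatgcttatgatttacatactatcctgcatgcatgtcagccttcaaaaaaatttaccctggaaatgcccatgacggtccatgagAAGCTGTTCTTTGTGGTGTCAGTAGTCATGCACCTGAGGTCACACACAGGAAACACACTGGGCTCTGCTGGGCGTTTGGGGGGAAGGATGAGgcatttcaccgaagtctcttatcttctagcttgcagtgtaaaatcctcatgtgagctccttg
Shisa5: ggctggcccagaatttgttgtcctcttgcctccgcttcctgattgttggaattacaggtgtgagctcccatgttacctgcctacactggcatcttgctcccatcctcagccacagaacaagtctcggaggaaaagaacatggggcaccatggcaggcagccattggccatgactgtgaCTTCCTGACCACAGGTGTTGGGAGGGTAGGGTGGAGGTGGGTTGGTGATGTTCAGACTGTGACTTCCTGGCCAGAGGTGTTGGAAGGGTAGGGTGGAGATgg
Gon4l: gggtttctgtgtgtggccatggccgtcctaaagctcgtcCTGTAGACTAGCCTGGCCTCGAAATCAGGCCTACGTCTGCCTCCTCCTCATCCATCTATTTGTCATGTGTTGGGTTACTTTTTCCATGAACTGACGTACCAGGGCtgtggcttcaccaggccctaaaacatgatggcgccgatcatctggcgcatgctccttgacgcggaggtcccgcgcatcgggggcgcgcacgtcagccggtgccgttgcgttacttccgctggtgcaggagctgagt
S100a1: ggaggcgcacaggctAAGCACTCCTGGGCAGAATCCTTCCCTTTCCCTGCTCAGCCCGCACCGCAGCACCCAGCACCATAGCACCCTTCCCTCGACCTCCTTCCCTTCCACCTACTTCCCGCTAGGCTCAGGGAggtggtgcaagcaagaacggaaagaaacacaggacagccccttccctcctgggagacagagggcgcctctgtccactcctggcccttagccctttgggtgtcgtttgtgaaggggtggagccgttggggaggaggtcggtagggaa
H3c2: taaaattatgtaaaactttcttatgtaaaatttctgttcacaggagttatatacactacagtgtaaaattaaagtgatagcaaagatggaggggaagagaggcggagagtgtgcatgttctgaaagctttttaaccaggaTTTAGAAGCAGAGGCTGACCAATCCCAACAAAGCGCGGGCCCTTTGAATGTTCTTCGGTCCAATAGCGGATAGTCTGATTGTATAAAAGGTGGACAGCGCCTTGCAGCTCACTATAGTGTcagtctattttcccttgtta
Msx3: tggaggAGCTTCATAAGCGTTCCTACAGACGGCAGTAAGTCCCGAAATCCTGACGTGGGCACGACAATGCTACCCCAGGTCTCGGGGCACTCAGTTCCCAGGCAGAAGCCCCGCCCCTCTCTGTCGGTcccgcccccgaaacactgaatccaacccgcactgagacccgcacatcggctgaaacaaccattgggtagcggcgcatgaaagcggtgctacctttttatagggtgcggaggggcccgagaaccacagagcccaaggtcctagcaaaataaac
Gimap4: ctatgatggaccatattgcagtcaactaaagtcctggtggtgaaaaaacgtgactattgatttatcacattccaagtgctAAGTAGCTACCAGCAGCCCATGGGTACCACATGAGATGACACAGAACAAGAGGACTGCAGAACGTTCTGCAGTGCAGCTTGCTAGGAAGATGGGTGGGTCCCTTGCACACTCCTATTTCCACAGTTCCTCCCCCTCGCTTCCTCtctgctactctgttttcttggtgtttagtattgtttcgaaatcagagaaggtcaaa

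The printed windows lie, in the same order, at chr17:6658809-6659088 (plus strand), chr9:109052604-109052883 (plus), chr3:88834981-88835260 (plus), chr3:90514301-90514580 (minus), chr13:23752095-23752374 (plus), chr7:140049059-140049338 (minus) and chr6:48684328-48684607 (plus) of mm10. Sytl3 encodes a synaptotagmin-like protein of vesicle traffic. Its narrow region was 92 bp wide and covered bases -124 to -33. In Shisa5, a p53-inducible membrane protein gene, the 100 bp region spanned the start, from -72 to 27. That stretch is repetitive: shifted by 62 bases against itself, 34 of 38 bases matched (89.5%), against 14 of 38 at the best shift in Gon4l and 16 of 38 in Sytl3. The placing of reads within such repeats was not stated by the labels, and its part in this region was not tested. In Gon4l and S100a1, the latter a calcium-binding protein gene, the 105 and 119 bp regions ended 107 and 117 bases before the start. The 120 bp region of H3c2, a replication histone H3 gene, covered -110 to 9, and the 122 bp region of Msx3, a homeobox gene, covered -244 to -123. The 144 bp region of Gimap4 covered -170 to -27. Only the Shisa5 and H3c2 regions of these 7 crossed the start base. In each of the 7 windows the narrow region was the only region.

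Promoters whose widest region was narrow were less rich in CpG than those with wide regions. CpG dinucleotides are frequent in promoters of broadly used genes, and their content is given here as the ratio of observed to expected CpG. In the 32 windows whose widest region was under 150 bp the median ratio was 0.526 (quartiles 0.230 to 0.712), against 0.807 (0.664 to 0.934) in 8019 windows with a wide region (in the upper quartile of width of all regions, 0.536 kb or more) and 0.265 (0.130 to 0.523) in 10464 windows with no region. The median rose in order through 3 classes of intermediate width, defined below: 0.640 in the next class, 0.682 in the lower-middle class and 0.760 in the upper-middle class. GC content differed less, with medians of 58.0% for narrow, 62.0% for wide and 51.0% for no region. The windows are few and some belong to the same gene, so these are descriptions.

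Of 8 short motifs searched on both strands, 3 had matches in the printed narrow regions of H3c2: the CCAAT box (CCAAT), the TATA box (TATAAA) and the TCF/LEF core (CTTTGA). The RUNX core (TGTGGT) matched in those of Sytl3, Shisa5 and Gimap4, and the SP/KLF core (GGGCGG) in that of Msx3. None of the 8 matched in those of Gon4l and S100a1. No motif searched contains another. Over the same stretch of all 20084 windows, that of H3c2 (-110 to 9), CCAAT occurred in 22.9%, TATAAA in 6.35% and CTTTGA in 5.03%. TGTGGT occurred in 4.57% over the stretch of Sytl3, in 4.80% over that of Shisa5 and in 7.16% over that of Gimap4, and GGGCGG in 17.2% over that of Msx3. Over whole windows of 300 bases the shares were larger: CCAAT 38.1%, TATAAA 12.7%, CTTTGA 14.2%, TGTGGT 14.8% and GGGCGG 47.0%. In the whole windows of the 32 promoters whose widest region was narrow, GGGCGG occurred in 16 (50.0%, 95% exact interval 31.9 to 68.1%), between the 27.2% of windows without a region and the 69.6% of windows with a wide one. TGTGGT occurred in 9 of the 32 (28.1%, 13.8 to 46.8%). The ETS motif CCGGAAGT and the CRE motif TGACGTCA had 0 matches in those 32 (upper limit of the interval 10.9%), where 5.28% and 2.30% of all windows held one. With 32 windows a difference of that size was not detectable. AP-1 (TGANTCA) matched in 2 of the 32 and in 7.06% of all windows. Intervals here and below are exact (Clopper-Pearson), cover counting error only, and treat neighbouring regions as independent.

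The members were chosen by width, so their widths are a description. They ranged from 75 to 149 bp, with a median of 129.5 bp and quartiles of 116 and 141 bp. Only 221 were under 100 bp wide, 920 were 100 to 119 bp and 2521 were 120 to 149 bp. There was no break at the limit, with 542 regions in the last 5 bp inside it and 609 in the first 5 bp outside. Together the narrow regions covered 465 kb, or 1.91% of the 24.4 Mb of accessible sequence near genes. For comparison the other regions under the same rule were split at the quartiles of width of the whole list, 0.207, 0.294 and 0.536 kb. The class next to the narrow one, from 150 bp to the lower quartile, held 9256 regions. The lower-middle class, up to the median, held 13541, the upper-middle class, up to the upper quartile, 14336, and the wide class above it 15354.

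**Figure D1:**
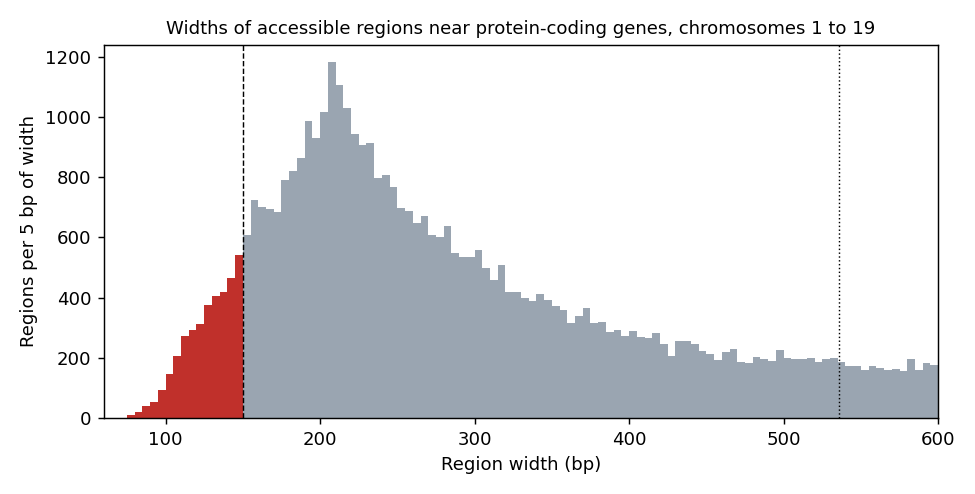
Number of autosomal regions within 200 kb of a protein-coding gene per 5 bp of width, up to 600 bp. The 3662 regions under 150 bp (red, left of the dashed line) form the lower slope of the distribution, and the dotted line marks the upper quartile of width, 0.536 kb.

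The places of narrow regions were near those of the bases around genes, with a small excess at gene ends, whereas wide regions gathered at gene ends. Of the 3662 narrow regions 5.65% (4.93 to 6.45%) lay within 1 kb of an annotated end of a protein-coding gene, 1773 lay inside a gene away from its ends (48.4%, 46.8 to 50.1%) and 1682 lay outside genes (45.9%, 44.3 to 47.6%). Of the bases within 200 kb of a gene, 3.83% were at gene ends, 48.4% inside and 47.7% outside. Per Mb there were 2.78 narrow regions at gene ends, 1.88 inside genes and 1.81 outside. The corresponding densities of wide regions were 103, 4.70 and 3.52 per Mb, and 49.9% of wide regions (49.1 to 50.7%) lay at gene ends. The interval of the narrow regions at gene ends overlapped that of the next class, where the share was 6.16% (5.68 to 6.67%). The share was 7.38% in the lower-middle class and 14.6% in the upper-middle class, so it rose with width and most steeply at the top. Within the narrow group, the 221 regions under 100 bp had 7.24% at gene ends (4.20 to 11.5%) and those of 120 to 149 bp had 5.71% (4.84 to 6.69%), with overlapping intervals. No test over samples could be made, since the list has no value per library.

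**Figure D2:**
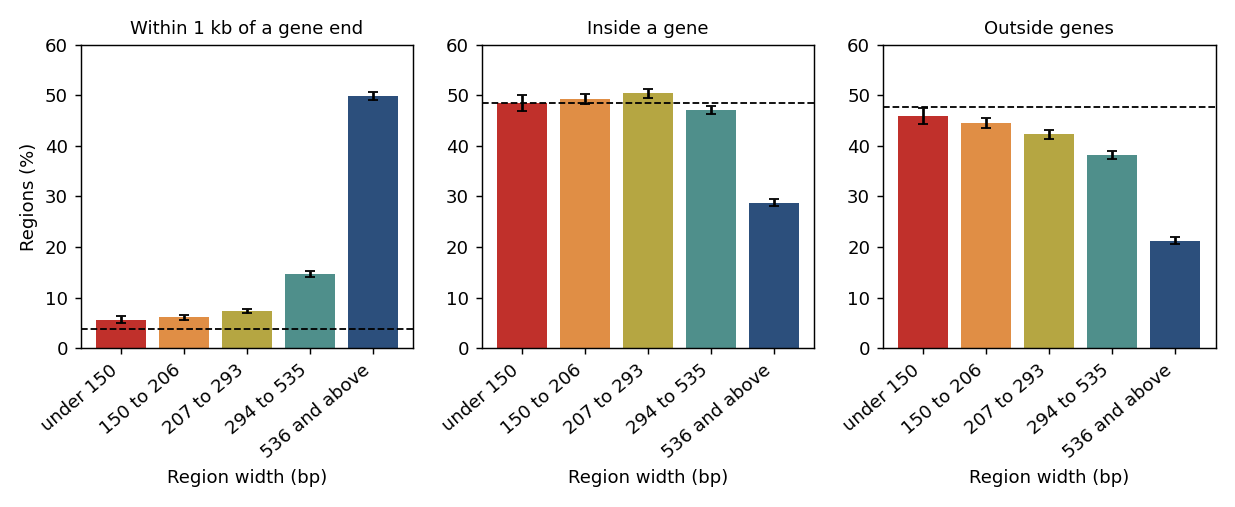
Share of regions within 1 kb of a protein-coding gene end, inside a gene and outside genes, for 5 width classes. Bars are percentages with 95% exact binomial intervals, and dashed lines show the share of bases in each place. The narrowest class lies near the dashed lines, somewhat above the line at gene ends, while 49.9% of the widest class is at gene ends.

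Strand was known for 16456 of the 20661 autosomal protein-coding genes (79.7%), which allowed starts to be told from 3' ends. Within 1 kb of a start lay 124 narrow regions (3.39%, 2.82 to 4.02%). The share was 4.02% (3.63 to 4.44%) in the next class, 17.0% in all regions near genes and 44.2% in wide ones. Within 1 kb of a 3' end, and of no start, lay 63 narrow regions (1.72%, 1.32 to 2.20%), and the other classes ranged from 1.45% to 2.03% there. The difference between narrow and wide regions at gene ends was thus at starts. Around the start, 20 narrow regions had their middle in the 300 bp upstream, 18 in the 300 bp downstream, 27 farther upstream and 50 farther downstream, up to 1000 bp. Per 100 bp these were 6.67 and 5.98 near the start, and 3.86 and 7.14 farther away on the upstream and downstream sides. No bin of 200 bp around the start held more than 17 narrow regions. The same 4 densities of wide regions were 812.7 and 1016 near it and 73.9 and 87.4 farther away. The median distance to the nearest available start was 53.6 kb for narrow regions, 48.5 kb for the next class, 43.0 kb for the lower-middle class and 7.01 kb for wide regions. Genes without an available start did not enter, even for regions inside them. The distances to starts are therefore upper limits, and the shares of regions at starts and in promoter windows are lower limits. Such gaps were large on chromosome 18, where the narrow region inside Nfatc1 lay at -19454593 bp (upstream) from the nearest available start. Strand was also unknown for Rps14, Arhgap26 and Dcc there. Results on starts, promoter windows and gene bodies therefore cover that chromosome poorly.

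**Figure D3:**
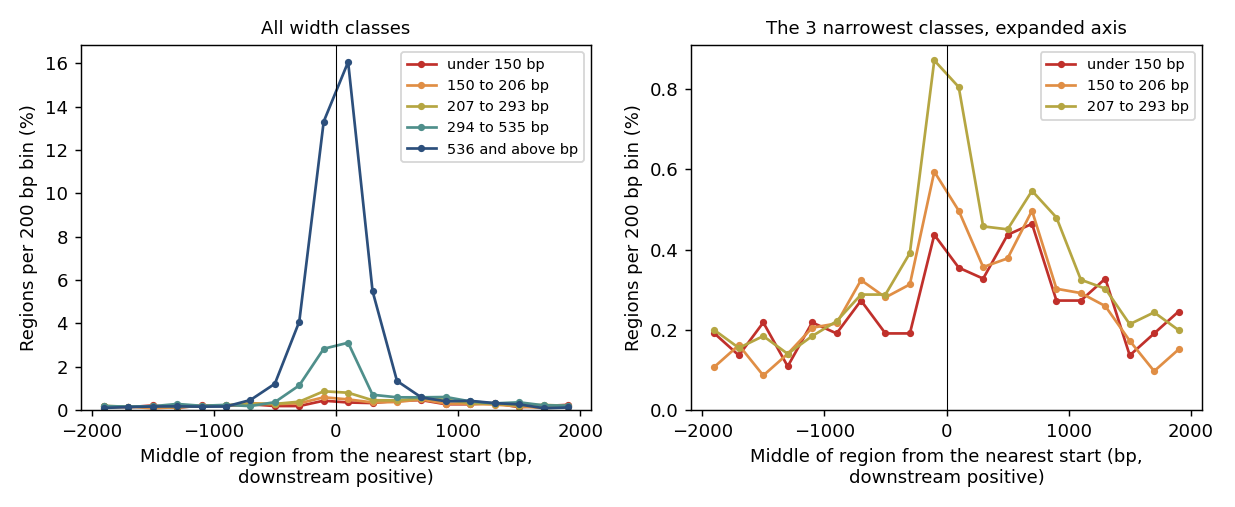
Share of regions whose middle falls in each 200 bp bin around the nearest annotated start, by width class, with downstream distances positive. Wide regions peak at the start, whereas regions under 150 bp stay under 0.5% in every bin, on the expanded axis at right.

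Start windows with a narrow region often held no wider region. Of the 16456 windows of 1 kb on either side of an annotated 5' gene end, 112 held a narrow region (0.681%). A wide region shared the window in 28 of the 112 (25.0%, 17.3 to 34.1%), while 41.5% of all such windows held a wide region. In 59 of them (52.7%, 43.0 to 62.2%) the window held no region of 150 bp or more. A second narrow region in the same window was not counted apart, and no such share was computed for the other classes. At 3' ends 74 of the windows held a narrow region. Of these, 69 held no region of 150 bp or more (93.2%, 84.9 to 97.8%) and 1 held a wide one, where 658 of the 16456 3' end windows held a wide region.

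The 10 narrowest regions at gene ends were 83 to 96 bp wide. They lay at Paqr8, a progestin receptor family gene, at the homeobox gene Nkx3-2, at Gm36028, Actl9, Bnip1, Havcr2, Sytl3, Stip1, Rnf157 and Dok3. Havcr2 encodes the inhibitory receptor TIM-3 of exhausted T cells, Stip1 a co-chaperone and Dok3 an adaptor of lymphocyte receptor signalling. At Havcr2 the 89 bp region (chromosome 11, 46481934 to 46482022) lay 0.678 kb from the gene and 14.7 kb from the nearest wide region. At Rnf157 the 95 bp region was separated from another region by 5 bp, and at Stip1 the 93 bp region by 37 bp. The other 8 were 1.94 to 21.6 kb from any other region.

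Most narrow regions were far from any wide region. The median distance to the nearest wide region, counted as the bases between their edges, was 53.6 kb (95% order-statistic interval 50.3 to 58.7 kb), with quartiles of 16.3 and 212 kb. It was 46.2 kb (44.1 to 48.6 kb) for the next class, 39.7 kb for the lower-middle, 23.7 kb for the upper-middle and 20.5 kb (19.9 to 20.9 kb) from one wide region to the next. The medians thus fell from the narrowest class to the widest. A wide region lay within 5 kb of 284 narrow regions (7.76%, 6.91 to 8.67%) and within 10 kb of 597 (16.3%). The shares were 8.51% and 17.8% in the next class, and 12.5% and 28.2% in the wide class. At the other end, 1398 narrow regions (38.2%) were over 100 kb away. So were 34.4% of the next class, 30.8% of the lower-middle class and 9.24% of wide regions. At the width limit itself, the median was 56.0 kb and the share within 5 kb 6.36% for the last 10 bp inside it, against 47.2 kb and 9.76% for the first 10 bp outside. The median was 92.4 kb when narrow regions far from genes were included, and 204.4 kb when wide meant 1000 bp or more, and it stayed above that of wide regions in both.

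The distance depended on the place. At gene ends the median was 17.4 kb for narrow regions (13.7 to 22.7 kb), below the 23.5 kb (22.9 to 24.2 kb) of wide regions there. Inside genes it was 46.6 kb against 16.7 kb, and outside genes 72.9 kb against 18.3 kb, so the order was the opposite in those 2 places. Of the narrow regions at gene ends 34 (16.4%, 11.7 to 22.2%) were within 500 bp of a wide region, compared with 27 of 1773 inside genes (1.52%) and 22 of 1682 outside (1.31%). The next class shared this pattern, with 14.4% (11.6 to 17.5%) of its regions at gene ends within 500 bp.

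The distances were not spread evenly over the first 10 kb. Between a narrow region and the nearest wide one there were 83 distances under 0.5 kb, 32 from 0.5 to 1 kb and 33 from 1 to 1.5 kb. From 1.5 to 4.5 kb the count was 14 to 19 in each 0.5 kb. It then rose to 35 between 4.5 and 5 kb and stayed between 23 and 38 up to 10 kb. Per kb this came to 115 narrow regions in the first kb, 38.7 at 1 to 4 kb and 64.7 at 5 to 8 kb. The same shape was present from wide region to wide region, at 684, 253 and 509.7 per kb. In the next class it was 309, 120 and 173. In the lower-middle class it was 519, 198 and 280.7, and in the upper-middle class 765, 317 and 430.3. Regions of each of the 5 classes were thus sparser at 1 to 4 kb from a wide region than in the first kb and at 5 to 8 kb. At 4 to 5 kb the next class still had 119 per kb. Among regions at gene ends, the upper-middle class showed no rise, with 61.3 per kb at 1 to 4 kb and 59.7 at 5 to 8 kb. The part of the peak calling, with settings not given in the sources used here, was not tested.

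**Figure D4:**
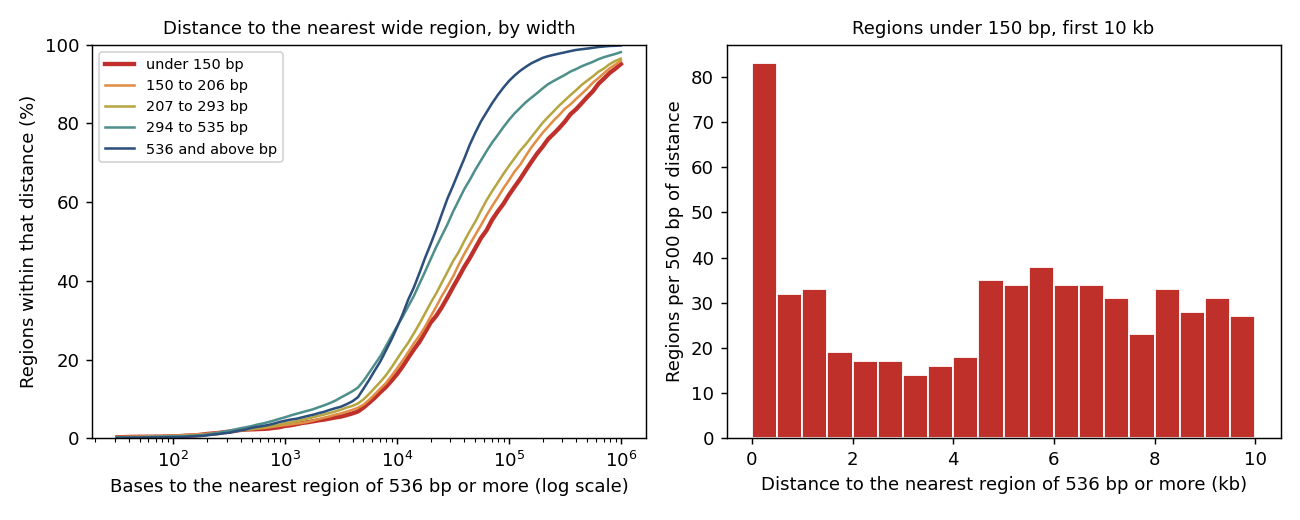
Left, cumulative share of regions by distance to the nearest region of 0.536 kb or more, for 5 width classes on a log axis. Right, regions under 150 bp per 500 bp of that distance over the first 10 kb; counts fall from 83 to between 14 and 19, then rise to 35 between 4.5 and 5 kb.

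The 5 narrow regions nearest to a wide one were 9 to 16 bp away from it. They lay at C2cd2l, at BC147527, at the actin regulator gene Brk1, at the translation factor gene Eif2a and at Pmel, a melanosome gene. The one at C2cd2l was 112 bp wide (chromosome 9, 44319542 to 44319653), with a region of 1269 bp beginning 9 bp further on. The one at Eif2a was 118 bp wide and 15 bp from a region of 1007 bp. These 5 stood beside wide regions of 694 to 1269 bp. Those farthest from a wide region were 3888 to 4113 kb away. For 3 of the 5 the nearest gene was Pabpc4l on chromosome 3, at 63.9 to 110.9 kb, and 1 lay inside the protocadherin gene Pcdh7. The other lay 116.6 kb from Slitrk6, a neuronal membrane protein gene. They were not isolated from all regions, since another region lay 6.08 to 54.3 kb from each. Of the 5 narrowest regions, 75 to 77 bp, 3 lay inside Slc25a17, Nyap2 and Cadps. The others lay outside genes, 100.9 kb from Ahr, the aryl hydrocarbon receptor gene, and 70.7 kb from 9530068E07Rik. These 5 narrowest regions lay 27.4 to 259.5 kb from the nearest wide region.

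Narrow regions adjoined another region about as often as the next class did. The nearest region of any width was a median of 11.6 kb away (quartiles 4.30 and 28.5 kb), compared with 10.9 kb for the next class and 7.54 kb for wide regions. It lay within 500 bp for 289 narrow regions (7.89%, 7.04 to 8.81%), close to the 7.85% of the next class and the 9.26% of wide regions. It lay over 50 kb away for 445 (12.2%), against 10.7% of the next class and 2.37% of wide regions. That nearest region was a wide one for 747 (20.4%, 19.1 to 21.7%), while wide regions made up 24.7% of all autosomal regions and were nearest to 32.8% of wide regions. Among the 289 with a neighbour within 500 bp, the neighbour was wide in 78 (27.0%), upper-middle in 80 (27.7%) and lower-middle in 83 (28.7%). It was of the next class in 41 (14.2%) and narrow itself in 7 (2.42%). In the same order these classes made up 24.7%, 25.1%, 25.25%, 17.8% and 7.17% of all autosomal regions. Among these close neighbours wide regions were thus near their share of the list, while narrow regions and the next class were below theirs.

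Inside genes, narrow regions were spread evenly along the body and lay in longer genes than wide regions did, traits shared by the next class. For 1350 of them in genes of known strand, the first 20% of the gene held 18.1% (16.1 to 20.2%) and the last 20% held 19.5% (17.4 to 21.7%). The next class had 19.2% and 18.7% there, and wide regions ran from 25.5% in the first to 13.5% in the last. The median length of the gene around a narrow region was 142.8 kb, against 131.9 kb in the next class and 87.2 kb around a wide one. Of the narrow regions inside genes 18.8% lay in a gene over 500 kb long, against 16.6% of the next class and 3.82% of wide regions; a long gene counts once for each of its regions. Outside genes, the nearest gene was a median of 34.2 kb away for narrow regions, 30.25 kb for the next class and 19.4 kb for wide regions. Of narrow regions 347 overlapped a long noncoding RNA gene (9.48%, 8.55 to 10.5%) and 38 a pseudogene (1.04%). The next class was nearly the same, with 9.28% and 1.07%, and wide regions had 14.4% and 0.697%. Only 1 overlapped a transfer RNA gene (0.0273%), against 0.0324% of the next class and 0.502% of wide regions. A microRNA, small nucleolar RNA or small nuclear RNA gene was overlapped by 0 of 3662. This allows a share of up to 0.0819% for each when 3 counts are taken as the limit (exact upper bound 0.101%). In the next class the shares were 0.0324% for microRNA genes and 0.0108% for each of the other kinds.

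The pattern held on the single chromosomes, which are not replicates. Narrow regions made up 6.52% ± 0.561 of the regions of an autosome (mean ± SD over 19 autosomes), from 5.33% on chromosome 11 to 7.67% on chromosome 6. Their share at gene ends was 5.75% ± 2.14 and was below that of wide regions on 19 of 19 autosomes, but below that of the next class on 13. Their median distance to a wide region exceeded that from wide to wide on 19 of 19, and that of the next class on 14. It ran from 26.9 kb on chromosome 11, where wide regions were densest at 9.68 per Mb, to 91.7 kb on chromosome 14, where they were sparsest at 4.44 per Mb. The difference from wide regions was thus present on each autosome, while the order against the next class was mixed.

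**Figure D5:**
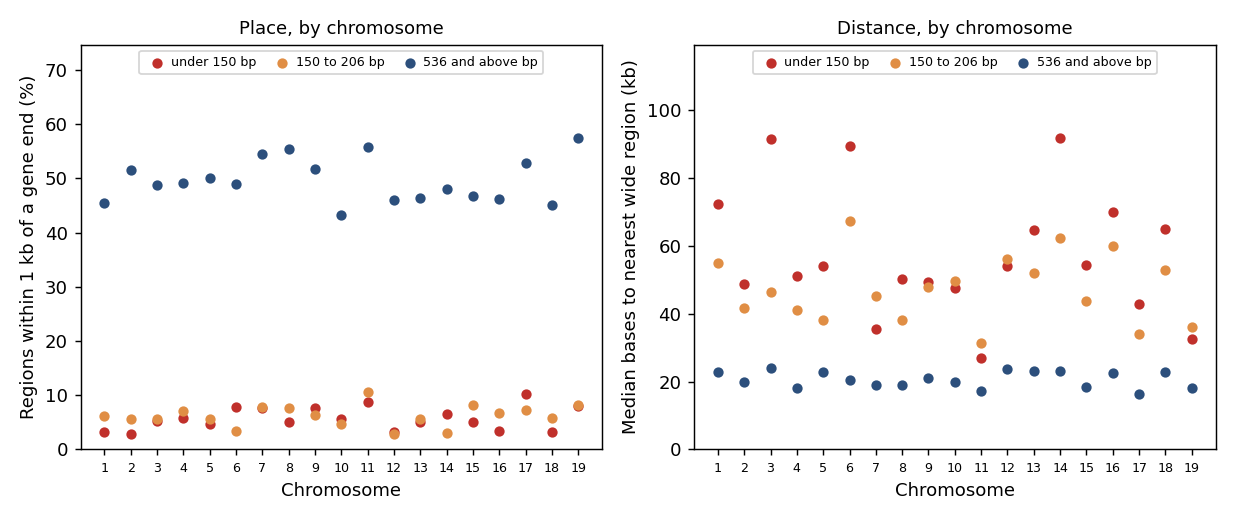
Each point is an autosome. Left, share of regions within 1 kb of a gene end; right, median distance in kb to the nearest region of 0.536 kb or more; narrow regions (red) lie apart from wide ones (blue) on 19 of 19 autosomes and mix with the next class (orange).

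By gene, 2304 of the 20661 autosomal protein-coding genes (11.2%) had a narrow region in the body or within 10 kb, and 57.9% had a wide one there. Of the genes, 1971 had 1 narrow region, 259 had 2 and 74 had 3 or more. Genes with a narrow region were longer, with a median of 58.8 kb against 15.6 kb for those without, so the counts below move with gene length. The 10 genes with the most narrow regions were 287.5 to 2271 kb long. Ptprd, a receptor tyrosine phosphatase gene of 2271 kb, had 10 of its 45 regions narrow and 1 wide. Cntnap2, a cell adhesion gene, had 7, and Arhgap26, Dcc, Naaladl2, Ntm, Robo2 and Spag16 had 6 each. Dcc and Robo2 encode receptors for the axon guidance cues netrin and Slit. Acoxl and the neuronal catenin gene Ctnna2 had 5 each. They were taken by alphabet from the genes tied at 5, since 13 genes had 5 or more. Of these 10 genes 7 had 0 wide regions; the exceptions besides Ptprd were Arhgap26 with 10 wide regions and Acoxl with 7.

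Among naive T cell identity genes, 13 of 37 had a narrow region (35.1%, 20.2 to 52.5%, beside 11.2% of all genes), in a list whose median gene length was 30.9 kb. Narrow regions were 19 of the list's 392 regions (4.85%, beside 6.52% of all). All 19 lay within 65.2 kb of a wide region, and the median distance was 12.1 kb. Runx1, a lineage regulator, had 3 of its 25 regions narrow, and 2 of these formed a pair 66 bp apart (chromosome 16, 92741271 to 92741405 and 92741472 to 92741597). Bach2, which keeps lymphocytes in a naive state, had 2 of 34. At Ikzf1, the Ikaros gene, a region of 132 bp (chromosome 11, 11690653 to 11690784) stood 46 bp from one of 636 bp. At Cd3e of the T cell receptor complex, a region of 129 bp lay 591 bp from one of 776 bp, and at Tcf7 a region of 132 bp lay 1.52 kb from one of 1040 bp. Ikzf1 has another narrow region, of 97 bp, 5.26 kb from the same wide one. These examples were chosen for their short distances.

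In the other T cell lists 12.5% to 25.0% of the genes had a narrow region, with intervals that included the 11.2% of all genes and overlapped that of the naive list. Of 24 activation and immediate early genes 3 had one (12.5%), namely Nr4a1, an orphan nuclear receptor induced by antigen, Nfatc1, a calcium-regulated factor, and Tnfaip3, an inhibitor of NF-kB. Of 25 effector helper genes 4 had one (16.0%). Rora, the Th17 nuclear receptor gene of 734.8 kb, had 3 of 24, which lay 7.34, 38.0 and 113.9 kb from the same wide region of 612 bp. The single narrow region in Il18r1, a cytokine receptor gene, lay 60.5 kb from a wide one. Of 12 regulatory T cell genes 3 had one (25.0%). Entpd1, which encodes the ectoenzyme CD39, and Ikzf2, which encodes Helios, had 1 each, and Ikzf2 had 0 wide regions among its 10. The narrow region counted for the other gene, Il1rl1, is the one inside the neighbouring Il18r1. Of 16 CD8 T and natural killer cell genes 2 had one (12.5%): Runx3, a regulator of the CD8 lineage, with 3 of 8, and Crtam with 1 of 4.

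Among lists of other cell types, 4 of 4 narrow regions of the B cell list, 7 of 8 of the neuronal list and 2 of 4 of the liver list lay over 100 kb from a wide one, beside 38.2% of all narrow regions. The exact intervals of the shares of genes below included the 11.2% of all genes. Of 18 B cell genes 4 had one (22.2%), the lineage factors Pax5 and Ebf1, the kinase gene Blk and the adaptor gene Bank1. These 4 narrow regions, all inside the gene, were 128.5 to 176.9 kb from the nearest wide region. Of 23 neuronal genes 5 had one (21.7%), and their narrow regions lay 12.9 kb to 1002 kb from a wide one, the farthest at the synaptic adhesion gene Nlgn1. Mapt, the tau gene, had 2 narrow regions of 4. Of 22 liver genes 4 had one (18.2%), including Cyp3a11, a drug-metabolising enzyme gene whose single region was narrow, and F2, the prothrombin gene, with 1 of 3, which lies inside the neighbouring Zfp408. The liver list had 23 regions in all, of which 4 were narrow (17.4%), 4.94 to 399.3 kb from a wide one. Of 18 myeloid genes 0 had one (95% exact interval 0 to 18.5%), with 0 narrow among 47 regions. These lists were described without a test, and they differ in gene length. Their regions were counted only in or within 10 kb of a listed gene, unlike the set of all narrow regions.

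In the ribosome lists the shares of genes with a narrow region were near the 11.2% of all genes. Of 30 ribosomal protein genes 3 had one (10.0%), all outside the gene: Rpl5, Rpl38 and Rps14. At Rpl5 a region of 128 bp lay 374 bp from the 1155 bp region at the gene's start. Of 40 ribosome biogenesis genes 6 had one (15.0%): Ddx10, Dhx37, Nol6, Rrp9, Polr1a and Ubtf. For Polr1a, the largest RNA polymerase I subunit gene, the distance to the nearest wide region was 366 bp, for the helicase gene Dhx37 it was 229 bp and for Ddx10, a DEAD-box helicase gene, 28.5 kb. The narrow region counted for Polr1a lies at the end of the neighbouring Ptcd3. The 9 narrow regions of both lists were 0.229 to 28.5 kb from a wide region, where the median of all narrow regions was 53.6 kb and 16.3% were within 10 kb. The sets are unlike, since the 9 were counted only in or within 10 kb of mostly short genes. The part of that choice in the short distances was not tested. Ddx55 itself, the gene named in the knockout label, had 0 narrow and 2 wide regions in its body or within 10 kb, and the nearest narrow region (chromosome 5, 124922927 to 124923074, 148 bp) lay 353 kb away.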

How the data were processed

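Per the submitters' processing notes, MACS3 3.0.0b1 and SAMtools 1.15.1, with Bowtie2 2.5.08 and fastp 0.12.4, were used on build mm10. Peak thresholds, duplicates, cut offsets and the joining of the 4 libraries' peaks: not given in the sources used here. Library fragments were selected by size, per the labels' protocols. The authors deposited 1 list of region positions (sequence name, start, end), with no signal, score or count, so depth per library is unknown. Per the labels, 2 libraries were wild type and 2 DDX55 KO; they were not compared.

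BED positions were converted to 1-based coordinates. Width is end minus start in the list. Gene positions came from RefSeq GRCm38.p6; starts, strand and promoter sequences came from its promoter table. Any overlap of 1 bp with the 1 kb on either side of a gene end placed a region at that end. Where genes overlap, the one reaching farthest was used for length. Distances are bases between edges. Python 3.11.15, NumPy 2.4.6, pandas 2.3.3 and SciPy 1.17.1 were used. The functions for place and distance were tested on simulated data. No test was run, because no value per library exists.

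Genes named are Ddx55; from each of 11 lists the 2 with the most narrow regions; the 10 genes with the most; genes next to the 5 narrowest members, the 5 nearest to and 5 farthest from a wide region and the 10 narrowest at a gene end; and up to 6 promoters. One marker gene of the cell type check is not reported here. Other names were chosen after their values were seen. The members and lists were chosen with earlier results of these data known. Alternatives were other windows, width limits, wide limits, gene sets and chromosomes.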

Additional observations from a re-analysis of the deposited data

Results flagged for a closer look

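Regions under 150 bp were also present where no comparison above used them. Chromosome X held 28 among its 878 regions (3.19%), chromosome Y held 2 of 54 (3.70%) and the unplaced scaffolds held 9 of 292 (3.08%), compared with 7.17% of autosomal regions. A further 875 autosomal ones lay over 200 kb from any protein-coding gene, which was 19.3% of the autosomal regions under 150 bp. Only 1.89% of the wide ones (0.536 kb or more) lay that far out. The next class was close to the narrow one: 9256 of its 11251 autosomal regions lay within 200 kb of a gene, beside 3662 of 4537 narrow ones.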

How the results depend on the processing

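The 5 summary values of the narrow regions were recomputed under other settings. A value was counted as moved when it left the 95% interval of the reported one, which happened for 18 of 133 recomputed values. Most of the 133 came from leaving out each of 19 autosomes in turn for the 5 values, and these did not move. All 18 moved values came from the fewer changes of setting, so the total of 133 overstates stability. With windows of 500 bp the share at gene ends was 2.76% and inside genes 50.4%; with 2 kb the shares at ends, inside and outside were 9.67%, 46.2% and 44.1%. With all annotated genes they were 9.64%, 53.5% and 36.9%. Without the limit of 200 kb they were 4.56%, 39.1% and 56.4%, the median distance to a wide region was 92.4 kb and the share within 5 kb was 6.35%. With wide regions taken as 400 bp or more the median was 39.3 kb and the share 11.4%; with 1000 bp or more they were 204.4 kb and 1.80%. Between middles the share within 5 kb was 6.83%. Under each of these settings the share at gene ends stayed below that of wide regions recomputed in the same way (47.1 to 56.4%) and the median distance above theirs. A width limit 25 bp lower or higher, the middle base for place, and leaving out regions with another within 100 bp moved no value. With wide regions of 1000 bp or more, the next class also had 1.80% within 5 kb. Leaving out each autosome in turn gave 5.45 to 5.89% at gene ends, 48.0 to 48.8% inside, 45.5 to 46.3% outside, a median of 52.2 to 55.8 kb and 7.58 to 7.96% within 5 kb. No paired analysis was possible because the list has no column per library, and no library could be left out.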
